A study of Mus musculus with 9 samples.

Results

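The 10 genes described here belong to the Notch pathway: the receptors Notch1, Notch2, Notch3, and Notch4, the ligands Dll1, Dll4, Jag1, and Jag2, and the target genes Hes1 and Hey1. They were picked by gene name from the 54532 genes of the series, and each name matched 1 gene identifier. RNA was sequenced in 9 libraries of b.End3, a line of mouse brain endothelium that the labels assign to strain C57BL/6 (the organism is given as mouse, although the culture notes call the line rat), with 3 libraries in each group. Ctrl cells were untreated. Ep1 and Ep2 cells formed a monolayer, were kept for 90 min with porfimer sodium at 300 µg/mL, a porphyrin photosensitizer that makes reactive oxygen species under red light, and then received 635 nm laser light at 100 mW/cm2 up to a dose of 10 J/cm2 (Ep1) or 20 J/cm2 (Ep2). No library analysed here had the photosensitizer or the light alone, so their separate parts cannot be told apart, and the time from light to lysis is not given in the sources used here. All groups are of this single line, and nothing in the labels says whether the 3 libraries of a group came from separate cultures. The p-values thus set differences against the spread between these libraries, which may be technical.

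Notch signaling passes between neighbouring cells. A Jagged or Delta-like ligand on the sending cell binds a Notch receptor on the receiving cell, the receptor is cut first by an ADAM protease and then by gamma-secretase, and the freed intracellular part enters the nucleus, where it joins the DNA-binding protein RBPJ and a Mastermind coactivator to switch on genes such as Hes1 and Hey1, which encode basic helix-loop-helix repressors. In endothelium, the pathway is best known for arterial identity and for the choice between tip and stalk cells during sprouting, with NOTCH1, NOTCH4, DLL4, and JAG1 as its main endothelial parts.

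The values are FPKM, that is fragments scaled to gene length and to a library factor, so levels of different genes can be compared per length. In these tables the library factor followed median-of-ratios size factors (a constant ratio of 0.998 in all 9 libraries) and not the summed fragments, to which its ratio was 0.995 to 1.03. The fragments counted on genes, recovered from these values, summed to between 16240688 and 19509225 per library. Of 18 endothelial markers, 4 reached 1 FPKM in 3 or more libraries (Flt1, Eng, Egfl7, and Plvap), and 7 stayed under 0.1 FPKM in every library (Kdr, Cldn5, Erg, Emcn, Sox17, Sox18, and Robo4). The endothelial cadherin gene Cdh5 averaged 0.863 FPKM, while the keratin genes Krt8 and Krt18 of simple epithelia averaged 628 and 262 FPKM. The defining markers of the labelled cell type were thus largely absent or low. Of the 8 epithelial markers, 4 passed the filter (Epcam, Krt8, Krt18, and Krt19). Krt7 and Esrp1 stayed under 0.1 FPKM in every library, and Cdh1 and Cldn4 reached at most 0.103 and 0.177 FPKM. The summed level of these 8 markers, nearly all of it from Krt8, Krt18, and Krt19, was 1030 to 1080 FPKM in Ctrl, 937 to 1040 in Ep1, and 1150 to 1370 in Ep2. That of the endothelial markers was 12.2 to 12.9, 12.6 to 14.3, and 15.8 to 17.7 FPKM. Of 4 immune markers, Cd68 passed the filter while Ptprc and Itgam stayed under 0.1 FPKM, and their sum was 23.1 to 25.0 FPKM in Ctrl, 20.1 to 25.3 in Ep1, and 76.6 to 92.0 in Ep2. The 8 fibroblast and mural markers, of which Col1a1 passed, summed to between 6.64 and 9.21 FPKM in all libraries, and the 4 glial and neuronal markers, of which 0 passed, to between 0.499 and 1.14 FPKM. The epithelial, endothelial, immune, and glial and neuronal sums were higher in each Ep2 library than in each Ctrl library. Outside the epithelial set, single genes carried much of the rise. Flt1 averaged 6.9 FPKM in Ctrl and 10.9 in Ep2, Cd68 23.8 and 83.6, and Snap25 0.49 and 0.912. Plvap also rose, from 0.831 to 1.5 FPKM. Egfl7 (2.09 and 1.65 FPKM), Eng (1.32 and 1.13), and Cdh5 (0.857 and 0.753) averaged lower in Ep2, with overlapping libraries. The part of these sums in the results on Notch genes was not tested.

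Hes1 was higher at both light doses and had the largest log2 fold changes against Ctrl among the members that could be tested. Of the 10 members, 7 reached 1 FPKM in 3 or more libraries and were tested with limma on log2(FPKM + 1), with Benjamini-Hochberg adjustment over all 11727 tested genes. Unless another setting is named, log2 fold changes are differences of log2(FPKM + 1). The added 1 makes them smaller than the log2 of the FPKM ratio, and more so the lower the level of the gene. In Ep1 compared to Ctrl, 2 of the 7 members had an adjusted p-value below 0.05 (Hes1 higher, Notch1 lower), and 11.3% of all tested genes did (6.32% higher and 4.97% lower). In Ep2 compared to Ctrl, 3 of the 7 had one (Hes1 higher, Notch1 and Notch4 lower), against 53.2% of all tested genes (23.9% higher and 29.3% lower). In Ep2 compared to Ep1, 1 of the 7 had one (Jag2 higher), against 44% of all tested genes (18.8% higher and 25.2% lower, or 25.4% and 20.3% with median centring). On the log2 scale, the 7 members had a median difference from Ctrl of -0.17 in Ep1 and -0.08 in Ep2, and all tested genes had -0.01 and -0.03. Ep1 and Ep2 were compared with the same Ctrl libraries, so chance differences in Ctrl enter both comparisons.

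**Figure D1:**
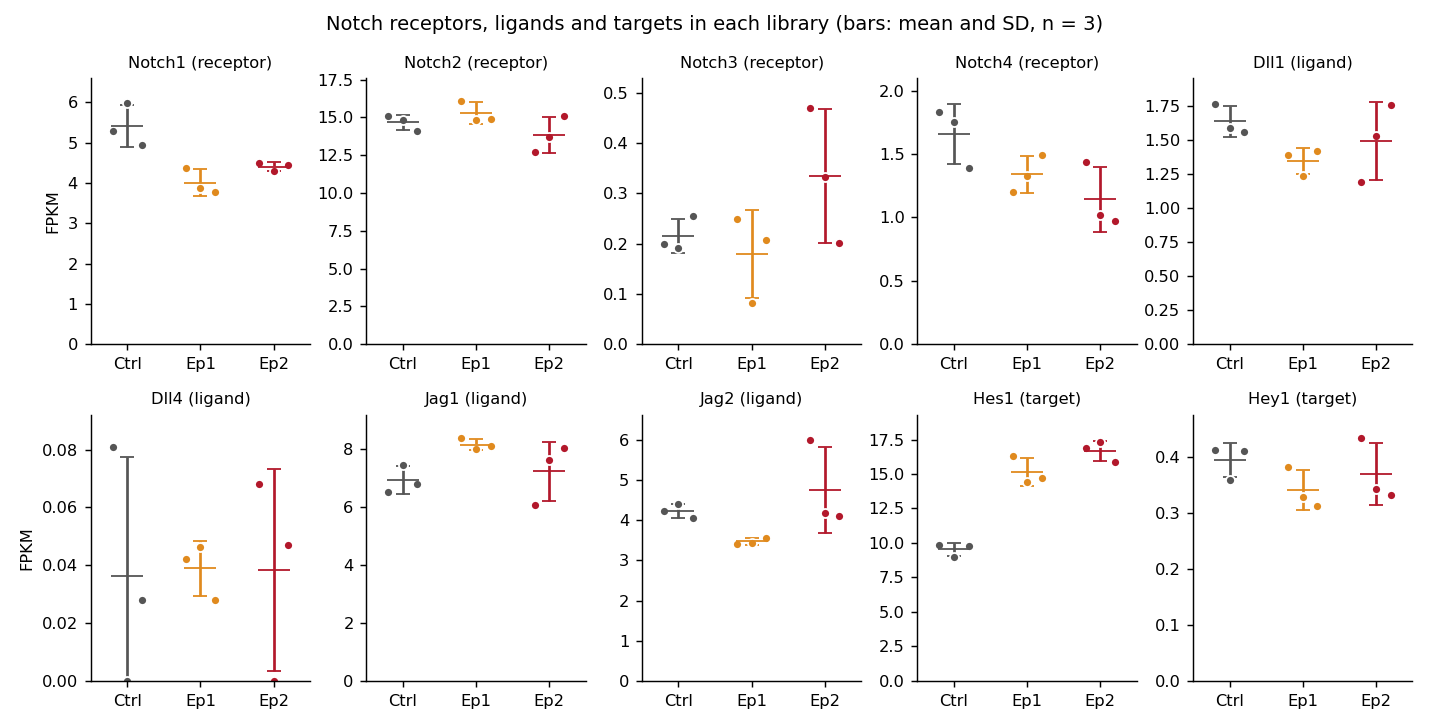
FPKM of each of the 10 genes (vertical axes, linear from 0, with a scale of their own) in the 3 libraries of Ctrl, Ep1, and Ep2; points are libraries and bars are the mean and SD. Hes1 lies between 9.01 and 9.85 FPKM in Ctrl and at 14.4 FPKM or above in every Ep1 and Ep2 library, while Dll4 stays under 0.1 FPKM throughout.

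Per length, Notch2 was the most abundant member in Ctrl, with 14.7 FPKM on average, followed by Hes1 (9.56 FPKM), Jag1 (6.92 FPKM), Notch1 (5.41 FPKM), and Jag2 (4.24 FPKM). Neighbours in this order did not overlap between libraries of Ctrl. Notch4 (1.66 FPKM) and Dll1 (1.64 FPKM) came next, and their Ctrl libraries overlapped, so their order was within the spread. Hey1 (0.395 FPKM), Notch3 (0.215 FPKM), and Dll4 (0.0362 FPKM) were near 0. In Ep2 the order changed at the top, where Hes1 (16.7 FPKM) stood above Notch2 (13.8 FPKM) without overlap. In Ep1 the 2 genes overlapped, at 15.1 and 15.2 FPKM. Also within Ep2, the libraries of Jag2 (4.76 FPKM) and Notch1 (4.41 FPKM) overlapped, as did those of Dll1 (1.49 FPKM) and Notch4 (1.14 FPKM), and those of Hey1 (0.37 FPKM) and Notch3 (0.335 FPKM).

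Among the receptors, Notch1 fell at both doses, Notch4 was lower in Ep2, and Notch2 showed no call. Notch1 (ENSMUSG00000026923, chromosome 2, 26457903 to 26516663, GRCm38), a receptor needed for arterial fate, had 5.30, 5.99, and 4.95 FPKM in the Ctrl libraries, 4.38, 3.88, and 3.77 FPKM in Ep1, and 4.49, 4.29, and 4.44 FPKM in Ep2. Every treated library lay under every Ctrl library. The level in Ep1 was 0.741 times that in Ctrl, with a log2 fold change of FPKM + 1 of -0.36 (SE 0.0717, 95% interval -0.52 to -0.19, limma adjusted p = 0.0184). In Ep2 it was 0.815 times that in Ctrl, with a log2 fold change of FPKM + 1 of -0.24 (SE 0.0717, 95% interval -0.40 to -0.08, limma adjusted p = 0.0175). A gene on the opposite strand that overlaps Notch1 (0610009E02Rik) had at most 0.301 FPKM, and whether the counting used strand is not given in the sources used here. Neither fall reached 0.6, the study's threshold for a DEG, which is applied here to log2(FPKM + 1). With limma's voom on the recovered fragments, the log2 fold changes were -0.45 in Ep1 and -0.27 in Ep2, also short of 0.6. The doses did not differ from each other past the threshold (log2 fold change 0.11, 95% interval -0.05 to 0.27, limma adjusted p = 0.23). The adjusted p-value of Notch1 in Ep1 was 0.0576 to 0.0763 without Ctrl replicate 1, Ctrl replicate 2, or Ep1 replicate 3 and 0.0592 without a filter, and in Ep2 it was 0.0685 without Ctrl replicate 2 and 0.0537 without Ep2 replicate 2.

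Notch4 (ENSMUSG00000015468, chromosome 17, 34564268 to 34588503, GRCm38), a receptor found mostly in endothelium, had 1.83, 1.75, and 1.39 FPKM in Ctrl, 1.20, 1.33, and 1.49 FPKM in Ep1, and 1.44, 1.02, and 0.971 FPKM in Ep2. Ep2 replicate 1 lay above Ctrl replicate 3, so the groups overlapped. Its level in Ep2 was 0.687 times that in Ctrl, with a log2 fold change of FPKM + 1 of -0.31 (95% interval -0.56 to -0.07, limma adjusted p = 0.0366), and in Ep1 the log2 fold change was -0.18 (limma adjusted p = 0.306). With limma's voom on the recovered fragments, which adds no 1 to the FPKM, the log2 fold change in Ep2 was -0.52. The call in Ep2 did not hold throughout, since the adjusted p-value exceeded 0.05 in 9 of 16 alternative fits, among them the replicate block, median centring, and the fits without Ctrl replicate 1, Ctrl replicate 2, Ep1 replicate 2, Ep2 replicate 2, or Ep2 replicate 3, and was at most 0.117.

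Notch2 (ENSMUSG00000027878, chromosome 3, 98013527 to 98150361, GRCm38), a broadly expressed receptor, had 15.1, 14.8, and 14.1 FPKM in Ctrl, 16.1, 14.8, and 14.9 FPKM in Ep1, and 12.7, 13.7, and 15.1 FPKM in Ep2. These groups overlapped. The log2 fold change was 0.05 in Ep1 (95% interval -0.09 to 0.20, limma adjusted p = 0.635) and -0.08 in Ep2 (95% interval -0.23 to 0.06, limma adjusted p = 0.305), and neither interval reached the size of the change in Hes1. Without Ep2 replicate 3, the difference between Ep2 and Ep1 passed the threshold (log2 fold change -0.20, limma adjusted p = 0.025), compared with -0.13 (limma adjusted p = 0.12) in all libraries. Notch3 is described with the genes near 0.

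The promoters of the receptors that were called are shown for their sequence context as RefSeq gives them on GRCm38.p6. In the windows from 250 bases before to 50 after each start site, 3 motifs were searched on both strands: the RBPJ core TGGGAA, the AP-1 site TGANTCA, and the GC box GGGCGG. Of all 32851 promoter windows, 25.6%, 7.81%, and 35.7% held them. The members had 9 windows for 8 genes, with no entry for Hes1 and Hey1. Among these 9 windows, 0 held the RBPJ core, 2 held an AP-1 site (Notch4 and Dll1), and 5 held a GC box (Notch1, Notch2, Notch3, Dll4, and Jag2). The 250 bases before the start site of Notch1 (chr2:26503823-26504072, minus strand) held 5 GC boxes, at a start site inside the bounds that the table gives for the gene, and the 253 bases of Notch4 (chr17:34564045-34564297, plus strand) ended with an AP-1 site that crosses the start site. Capitals mark these matches on either strand, both sequences are written 5′ to 3′ on the strand of the gene, and a match is a description of letters only.
Notch1: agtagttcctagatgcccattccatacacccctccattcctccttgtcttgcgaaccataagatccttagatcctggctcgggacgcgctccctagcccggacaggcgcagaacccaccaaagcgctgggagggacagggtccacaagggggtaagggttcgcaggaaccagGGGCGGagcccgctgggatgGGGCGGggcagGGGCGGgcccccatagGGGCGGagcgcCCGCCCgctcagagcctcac
Notch4: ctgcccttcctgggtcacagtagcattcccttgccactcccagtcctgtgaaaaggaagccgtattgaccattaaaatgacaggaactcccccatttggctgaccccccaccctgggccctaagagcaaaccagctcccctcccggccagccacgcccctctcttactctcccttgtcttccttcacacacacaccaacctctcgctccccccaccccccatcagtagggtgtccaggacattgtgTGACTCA

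Of the ligands, none was called against Ctrl, and Jag2 differed between the doses. Jag1 (ENSMUSG00000027276, chromosome 2, 137081456 to 137116644, GRCm38), a ligand that also antagonizes Delta-like signals in sprouting vessels, had 6.51, 7.45, and 6.80 FPKM in Ctrl, 8.37, 7.99, and 8.09 FPKM in Ep1, and 6.08, 7.60, and 8.02 FPKM in Ep2. All 3 Ep1 libraries lay above all 3 Ctrl libraries, as groups did without overlap for 41.3% of all tested genes. The log2 fold change was 0.21 in Ep1 (95% interval 0.01 to 0.41, limma adjusted p = 0.146) and 0.05 in Ep2 (95% interval -0.15 to 0.25, limma adjusted p = 0.658). Ep2 replicate 1 had the lowest Jag1 level of all 9 libraries, and without it the adjusted p-value of Jag1 in Ep1 was 0.0292. It was 0.0362 when only Ep1 and Ctrl were fitted.

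Jag2 (ENSMUSG00000002799, chromosome 12, 112907819 to 112929776, GRCm38), the other Jagged ligand, had 4.24, 4.41, and 4.06 FPKM in Ctrl, 3.42, 3.44, and 3.56 FPKM in Ep1, and 6.00, 4.18, and 4.11 FPKM in Ep2. Ep1 was the lowest group, without overlap with either of the others (54.4% of all tested genes had no overlap between Ep2 and Ep1), and Ep2 replicate 1 stood apart at the top. Its level in Ep2 was 1.37 times that in Ep1, with a log2 fold change of FPKM + 1 of 0.35 (SE 0.109, 95% interval 0.11 to 0.59, limma adjusted p = 0.0262). This value was 0.20 without Ep2 replicate 1, more than 1.5 times smaller, with an adjusted p-value of 0.0151. Over the fits that left out 1 library the adjusted p-value reached 0.0673, and it exceeded 0.05 without Ep1 replicate 1, 2, or 3; it was 0.0757 without a filter and missed the threshold with only the 2 groups fitted. The microRNA gene Mir6941, which overlaps Jag2 on the same strand, had at most 1.73 FPKM. Against Ctrl, the log2 fold change was -0.23 in Ep1 (limma adjusted p = 0.197) and 0.12 in Ep2 (limma adjusted p = 0.367), the latter -0.03 without Ep2 replicate 1. The difference of Jag2 in Ep1 passed the threshold without that library (limma adjusted p = 0.0157) and with only Ep1 and Ctrl fitted (limma adjusted p = 0.023).

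Dll1 (ENSMUSG00000014773, chromosome 17, 15367354 to 15376872, GRCm38), a Delta-like ligand of arterial endothelium, had 1.77, 1.59, and 1.56 FPKM in Ctrl, 1.39, 1.24, and 1.42 FPKM in Ep1, and 1.19, 1.53, and 1.76 FPKM in Ep2. The Ep1 libraries lay under the Ctrl libraries, and Ep2 spanned both groups. The log2 fold change was -0.17 in Ep1 (95% interval -0.38 to 0.05, limma adjusted p = 0.275) and -0.09 in Ep2 (95% interval -0.30 to 0.13, limma adjusted p = 0.472). Together, 5 of the 7 tested members had Ep1 libraries that did not overlap with Ctrl (Notch1, Dll1, Jag2, Jag1, and Hes1), against 41.3% of all tested genes, and 2 had such Ep2 libraries (Notch1 and Hes1), against 59.7% of all tested genes.

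**Figure D2:**
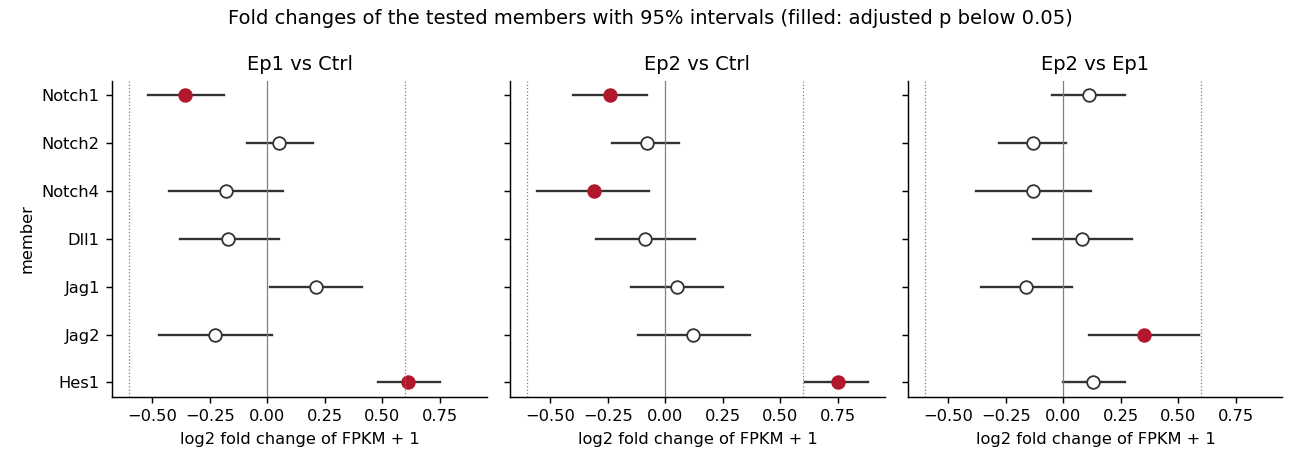
Log2 fold change of FPKM + 1 (horizontal axes) of the 7 tested members in the 3 comparisons; points are estimates, lines 95% intervals, filled points have an adjusted p-value below 0.05, and dotted lines mark 0.6 in either direction. Only Hes1, at 0.61 in Ep1 and 0.75 in Ep2, lies beyond the dotted lines among these 7 genes.

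Hes1 (ENSMUSG00000022528, chromosome 16, 30064384 to 30067796, GRCm38), which encodes a repressor that responds to Notch and to other signals, had 9.85, 9.01, and 9.81 FPKM in Ctrl. The Ep1 libraries had 16.3, 14.4, and 14.7 FPKM, and the Ep2 libraries 16.9, 17.3, and 15.9 FPKM. Each treated library exceeded each Ctrl library, and Ep1 replicate 1 lay within the range of Ep2. The values rested on 359 to 387 fragments per library in Ctrl, 491 to 613 in Ep1, and 537 to 658 in Ep2.

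The mean of Hes1 rose from 9.56 ± 0.474 FPKM in Ctrl to 15.1 ± 1.02 in Ep1 and 16.7 ± 0.728 in Ep2 (SD, n = 3 libraries each). The level in Ep1 was 1.58 times that in Ctrl, with a log2 fold change of FPKM + 1 of 0.61 (SE 0.0597, 95% interval 0.48 to 0.75, limma adjusted p = 0.00318). The level in Ep2 was 1.75 times that in Ctrl, with a log2 fold change of FPKM + 1 of 0.75 (SE 0.0597, 95% interval 0.61 to 0.88, limma adjusted p = 1.44e-05). With a log2 fold change of FPKM + 1 beyond 0.6, Hes1 was a DEG by the rule used here in both comparisons, as were 0.793% of all tested genes in Ep1 and 9.17% in Ep2. In Ep1 it stood close to this line, and its log2 fold change ranged from 0.56 to 0.66 over the alternative fits, while its adjusted p-value stayed below 0.05 in all 17 of them at both doses. In a bulk sample, more cells with a transcript and more of it per cell cannot be told apart, and the same holds for a fall.

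Between Ep2 and Ep1, Hes1 differed by 0.13 on the log2 scale (95% interval 0.00 to 0.27, limma adjusted p = 0.0957). The difference passed the threshold with median centring (limma adjusted p = 0.0263), with scaling by summed fragments (0.0463), and without Ep1 replicate 1 (0.0353). Whether Hes1 was higher at the larger dose thus depended on the scaling and on that library.

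**Figure D3:**
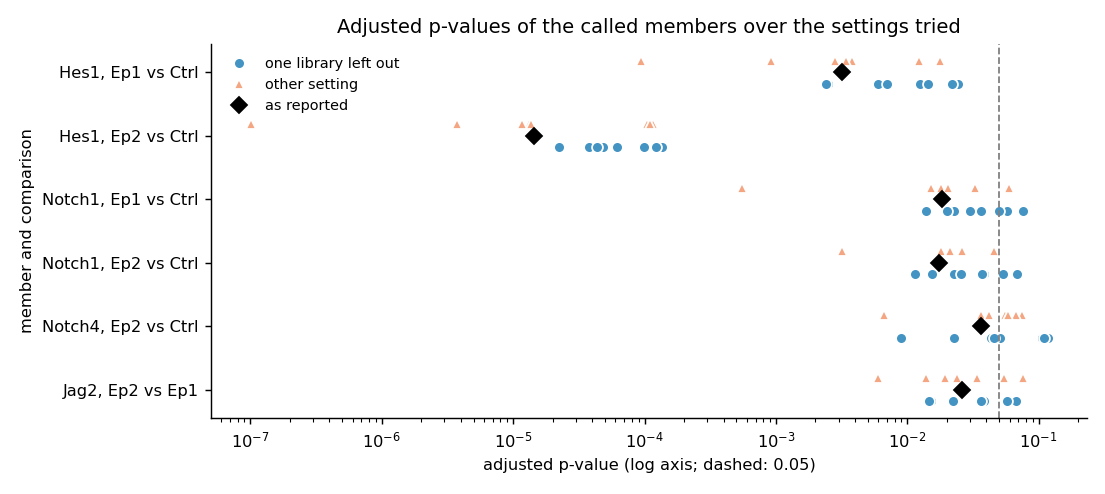
Adjusted p-value (horizontal axis, log scale, dashed line at 0.05) of each call among the members (vertical axis), as reported (diamonds), with 1 library left out (circles), and under the other settings (triangles). Hes1 stays to the left of the line in every fit at both doses, while Notch1, Notch4, and Jag2 each cross it in several.

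Across the 9 libraries, the tested genes whose pattern was most like that of Hes1 were Zfand5, Gclm, and Zfand2a. Likeness was the root mean square difference of log2(FPKM + 1), centred by gene, which was 0.0599 for Zfand5, 0.0815 for Gclm, and 0.0912 for Zfand2a, with a median of 0.369 over all tested genes. Zfand5 averaged 13.5, 20.7, and 24.4 FPKM in Ctrl, Ep1, and Ep2. Gclm averaged 14.5, 22.8, and 24.5 FPKM, and Zfand2a averaged 14.6, 20.4, and 22.7 FPKM in the same groups. These genes share all libraries and their scaling with Hes1 and were sought over the whole table, so this is a description without a test.

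Dll4, Notch3, and Hey1 were at or near 0 and had no test under the filter. Dll4 (ENSMUSG00000027314, chromosome 2, 119325784 to 119335962, GRCm38), the Delta-like ligand of endothelial tip cells, held 6, 0, and 2 fragments in the Ctrl libraries, 3, 3, and 2 in Ep1, and 5, 0, and 3 in Ep2. It was listed at 0 in 2 libraries, where up to 3 fragments remain possible, or 0.0398 to 0.0469 FPKM for this gene. No change of Dll4 was detectable at this depth, and these limits cover counting error only.

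Notch3 (ENSMUSG00000038146, chromosome 17, 32120820 to 32166880, GRCm38), the receptor of mural cells around vessels, held 31, 30, and 38 fragments in Ctrl, 37, 11, and 31 in Ep1, and 72, 50, and 27 in Ep2. These values correspond to 0.0815 to 0.47 FPKM, with Ep1 replicate 2 the lowest and Ep2 replicate 1 the highest, and the groups overlapped. With limma's voom on the recovered fragments, which tested 14112 genes, Notch3 was higher in Ep2 than in Ep1 by 0.98 on the log2 scale (95% interval 0.19 to 1.78, adjusted p = 0.0441), a call that 41.7% of all genes in that fit had. Against Ctrl in the same fit, the log2 fold change was 0.61 in Ep2 (adjusted p = 0.153) and -0.37 in Ep1 (adjusted p = 0.581). Without any filter on log2(FPKM + 1), the difference between the doses had an adjusted p-value of 0.258 in limma.

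Hey1 (ENSMUSG00000040289, chromosome 3, 8663359 to 8667256, GRCm38), the repressor that carries Notch signals to arterial genes, held 26, 23, and 25 fragments in Ctrl, 23, 18, and 19 in Ep1, and 27, 21, and 18 in Ep2. Its level lay between 0.313 and 0.434 FPKM, with overlap between the groups. In voom, the log2 fold change was -0.22 in Ep1 (95% interval -0.82 to 0.38, adjusted p = 0.659) and -0.07 in Ep2 (95% interval -0.66 to 0.52, adjusted p = 0.852). The upper bound in Ep2 lies under the voom estimate for Hes1 of 0.83. The difference between both genes was not tested.

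**Figure D4:**
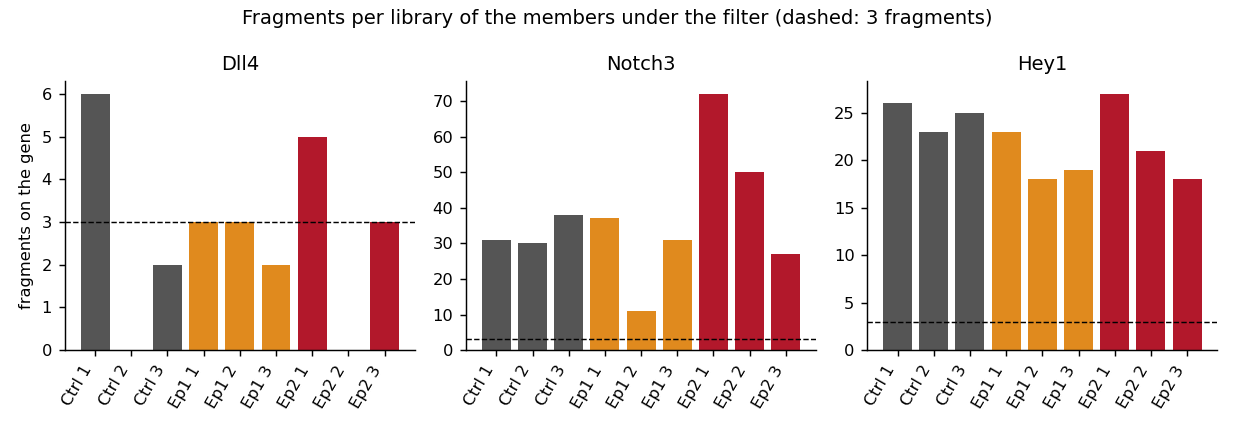
Fragments (vertical axes, linear from 0) recovered for Dll4, Notch3, and Hey1 in each of the 9 libraries, coloured by group; the dashed line marks the 3 fragments still possible where none was counted. Dll4 reaches at most 6 fragments, Hey1 at most 27, and Notch3 at most 72, in Ep2 replicate 1.

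Around the members, 62 other genes of the pathway were followed by role, of which 46 passed the filter. Against Ctrl, 5 of them were called in Ep1 (3 higher and 2 lower), which is 10.9% against 11.3% of all tested genes, and the median difference of the 46 genes was 0.03 on the log2 scale. In Ep2, 22 were called (13 higher and 9 lower) with a median of 0.04, and between the doses 16 passed (10 higher and 6 lower in Ep2), which is 34.8% against 44% of all tested genes. The 22 calls are 47.8% of the list, close to the background of 53.2%. With median centring, 18 were higher and 7 lower in Ep2. Centring also moved the median difference of all tested genes in Ep2 from -0.029 to 0.018. The matching shares of all tested genes are not given here, so nothing on the pathway is drawn from these counts. In Ep1, the limma count was 0 without Ctrl replicate 2 or Ep1 replicate 3 (10 and 9 genes at an unadjusted p-value under 0.05) and 10 without Ep2 replicate 1. It was 1 to 3 without any other single Ctrl or Ep1 library and 7 with voom. The shares of all tested genes in these fits are not given here either.

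Among the enzymes that put sugars on the receptor, 3 of 4 tested genes were lower in Ep2 and 0 higher, where 29.3% of all tested genes were lower and 23.9% higher. Pofut1, which adds fucose to the EGF repeats of Notch, fell in Ep2 to 6.41 FPKM from 9.14 in Ctrl (log2 fold change -0.46, limma adjusted p = 0.000837), and Poglut1, which adds glucose to them, fell from 14.6 to 10.8 FPKM (-0.41, limma adjusted p = 0.000187). All 3 Ep2 libraries of both genes lay under all Ctrl libraries, and 59.7% of all tested genes had no overlap between these groups. In Ep1, their log2 fold changes were -0.03 and -0.11, with adjusted p-values of 0.802 and 0.196, and Ep2 was lower than Ep1 for both (limma adjusted p = 0.00181 and 0.00163). The other gene called lower in Ep2 was Rfng, from 6.28 FPKM in Ctrl to 5.28 (log2 fold change -0.21, limma adjusted p = 0.0121). Lfng, which extends the fucose on Notch, was called lower in Ep1 but not in Ep2. It is named here after its values were seen, as are Rfng and Dtx3l. Lfng fell from 2.67 FPKM in Ctrl to 1.83 in Ep1 (log2 fold change -0.37, limma adjusted p = 0.0185), had 2.36 FPKM in Ep2 (-0.13, limma adjusted p = 0.19), and was higher in Ep2 than in Ep1 (0.25, limma adjusted p = 0.0248). Its calls in Ep1 and between the doses were each lost in 5 of 16 alternative fits, among them those without Ep1 replicate 2 or Ep1 replicate 3 (adjusted p up to 0.0676 and 0.091).

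Of 8 tested genes for cutting the receptor, 3 were higher and 1 lower in Ep2, with log2 fold changes from -0.15 to 0.24. Of 12 tested genes for ubiquitin transfer and trafficking, 4 were higher and 1 lower. The shares called in these 2 roles, 50% and 41.7%, lay under the 53.2% of all tested genes (23.9% higher and 29.3% lower). Dtx4, an E3 ligase of the Deltex family, rose from 2.02 FPKM in Ctrl to 3.01 in Ep2 (log2 fold change 0.41, limma adjusted p = 0.000899) and had 1.64 FPKM in Ep1 (-0.19, limma adjusted p = 0.105). Its level in Ep2 was 1.84 times that in Ep1, a difference of 0.60 in log2(FPKM + 1) (limma adjusted p = 0.000155). Over the alternative fits, this difference ranged from 0.57 to 0.90. Dtx3l, another gene of that family, fell from 3.22 FPKM in Ctrl to 2.44 in Ep1 (-0.29, limma adjusted p = 0.0285), a call lost when any single Ctrl or Ep1 library was left out (adjusted p up to 0.116), and had 2.96 FPKM in Ep2 (-0.09, limma adjusted p = 0.283). Dtx3l was higher in Ep2 than in Ep1 (0.20, limma adjusted p = 0.0359), a call lost in 7 of 16 alternative fits.

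In the nuclear complex, 1 of 4 genes was higher in Ep1 (Rbpj) and 1 in Ep2 (Maml1), where 6.32% and 23.9% of all tested genes were higher. Neither Rbpj nor Maml1 differed between the doses past the threshold (limma adjusted p = 0.131 and 0.11), although Maml1 did with median centring, scaling by summed fragments, voom, or without Ep1 replicate 1 (adjusted p down to 0.0227). Rbpj, the DNA-binding protein of the complex, rose from 7.74 to 9.01 FPKM in Ep1 (log2 fold change 0.20, limma adjusted p = 0.0342) and had 8.36 FPKM in Ep2 (0.10, limma adjusted p = 0.115). The call in Ep1 was lost without a filter, with the replicate block, and when any single Ctrl or Ep1 library was left out, with an adjusted p-value of up to 0.111. Maml1, a Mastermind coactivator, rose from 15.9 FPKM in Ctrl to 19.0 in Ep2 (0.24, limma adjusted p = 0.00568), while in Ep1 the log2 fold change was 0.12 (limma adjusted p = 0.196). Maml2 had log2 fold changes of 0.14 and 0.16 in Ep1 and Ep2 (adjusted p = 0.581 and 0.391), and Maml3 of 0.29 and 0.24 (adjusted p = 0.103 and 0.0769).

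All 13 listed co-regulators were tested, and in Ep2 4 were higher and 3 lower. This is 53.8% called, close to the 53.2% of all tested genes. The acetyltransferase genes moved in opposite directions. Kat2b had the largest rise of all 46 genes in Ep2, from 8.61 to 14.6 FPKM (log2 fold change 0.70, limma adjusted p = 0.000107), with 8.83 FPKM in Ep1. Crebbp rose from 4.42 to 6.82 FPKM (0.52, limma adjusted p = 0.000304) and Ep300 from 16.6 to 23.0 FPKM (0.44, limma adjusted p = 0.000468). Kat2a fell from 53.2 to 38.5 FPKM (-0.46, limma adjusted p = 0.000237). In Ep1, Crebbp was higher as well (0.39, limma adjusted p = 0.0142), while Ep300 had 0.22 (limma adjusted p = 0.0626). The call of Crebbp in Ep1 was lost without Ctrl replicate 2 or Ep1 replicate 3 (adjusted p up to 0.0637), and Ep300 passed in 5 of 17 alternative fits, so the genes are not shown to differ in Ep1. These proteins serve many transcription factors besides RBPJ.

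Of 12 further target genes, 4 passed the filter, 1 of them higher and 1 lower in Ep2, where 23.9% of all tested genes were higher and 29.3% lower. Efnb2, which encodes the arterial ligand ephrin-B2, had 3.16, 3.22, and 3.28 FPKM in Ctrl, 3.93, 4.20, and 4.05 in Ep1, and 4.77, 5.40, and 4.60 in Ep2. The 3 groups did not overlap and followed the light dose. Of all tested genes, 41.3% had no overlap between Ep1 and Ctrl, 59.7% between Ep2 and Ctrl, and 54.4% between Ep2 and Ep1. The log2 fold change was 0.26 in Ep1 (limma adjusted p = 0.0287) and 0.49 in Ep2 (limma adjusted p = 0.000155), and Ep2 exceeded Ep1 by 0.22 (limma adjusted p = 0.0143). The call in Ep1 was lost without a filter and when any single Ctrl or Ep1 library was left out (adjusted p up to 0.0999), whereas the call in Ep2 held in all 16 alternative fits.

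**Figure D5:**
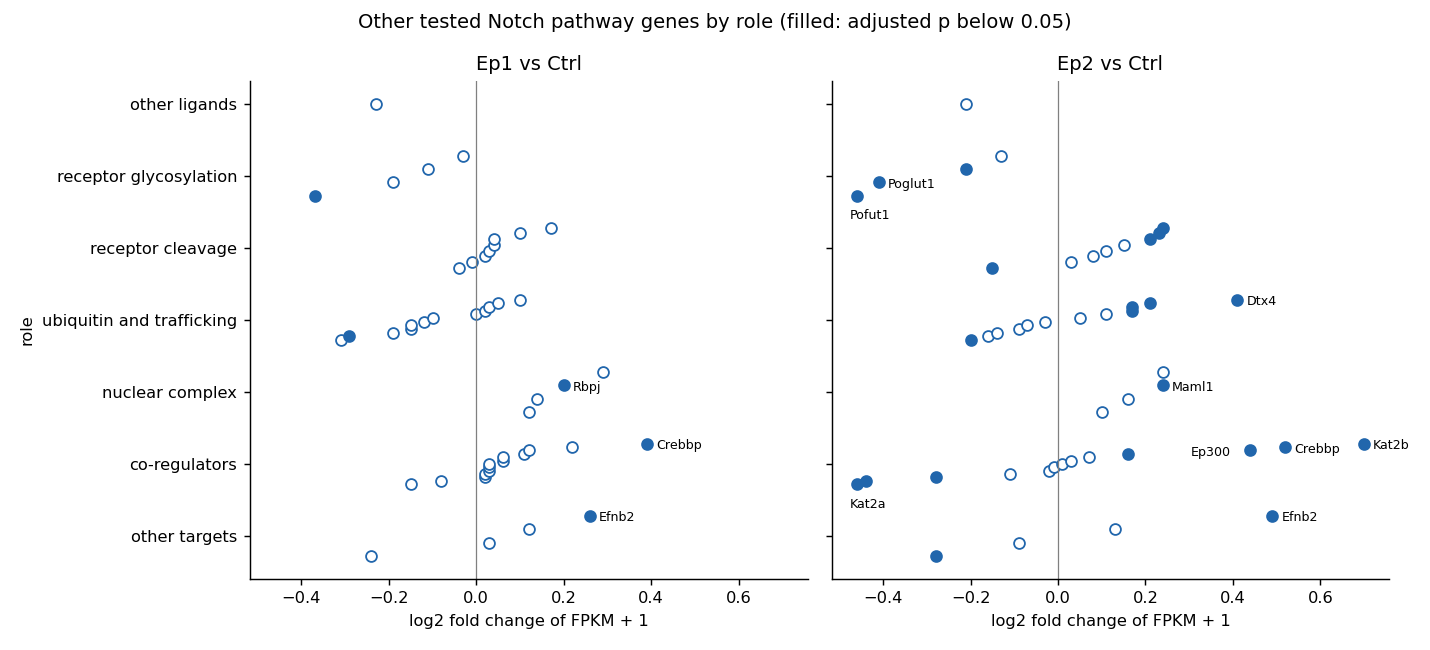
Log2 fold change of FPKM + 1 (horizontal axes) against Ctrl of the 46 tested pathway genes outside the 10 members, by role (vertical axis), in Ep1 and Ep2; each point is a gene, and filled points have an adjusted p-value below 0.05. In Ep1 5 points are filled and in Ep2 22, from -0.46 for Pofut1 and Kat2a to 0.70 for Kat2b.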

How the data were processed

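RNA was sequenced in 9 libraries, 3 per group, and the authors deposited FPKM values for 54532 genes, normalized by gene length and a library factor that followed median-of-ratios size factors. The submitters' notes name Bowtie 0.12.2 and mm8, and the methods name GRCm39, but the coordinates are those of GRCm38 (99.9% of 37620 genes overlapped RefSeq on GRCm38.p6). The counting tool is not given in the sources used here. FPKM times gene length gave whole multiples of 1 step per library (tolerance 0.05), from which whole fragments were recovered. Genes that reached 1 FPKM in 3 or more libraries were fitted as log2(FPKM + 1) over all 9 libraries with limma 3.58.1 (R 4.3.3; trend and robust variance), with Benjamini-Hochberg adjustment over all tested genes within each comparison. A call had an adjusted p-value below 0.05, and a DEG also a log2 fold change beyond 0.6 in either direction. The 0.6 is the study's threshold, applied here to log2(FPKM + 1), so the DEGs can differ from those of the study. The script was tested on simulated data. The alternatives were a pseudocount of 0.1, no filter, a filter at FPKM 5, median centring, a replicate block, only the 2 groups compared, voom on recovered fragments (at least 10 in at least 3 libraries), and leaving out each library; scaling by summed fragments was added after seeing the data. Members and lists were chosen with earlier results of these data known. Besides the members, the text names the nuclear complex and, per role, up to 4 genes with the largest log2 fold change in Ep2 against Ctrl among those called and beyond 0.3. For a member that was a DEG, it names the 3 most similar genes. Lfng, Rfng, Dtx3l, Hdac1, and the further target genes besides Efnb2 were added after their values were seen.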

Additional observations from a re-analysis of the deposited data

How the results depend on the processing

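Hes1 kept its direction and its adjusted p-value below 0.05 in both comparisons with Ctrl under all 17 alternatives. The number of members called in Ep1 was 2 and became 1 without a filter or with the filter at FPKM 5, which only Notch2, Jag1, and Hes1 pass, and 4 with only the 2 groups fitted; it ranged from 1 to 4 with 1 library left out. In Ep2 it was 3, became 1 with the filter at FPKM 5, and ranged from 1 to 3 with 1 library left out. It was 2, with Notch4 lost, without a filter, with median centring, with the replicate block, or with only the 2 groups fitted. Between Ep2 and Ep1 the number of members called was 1, and limma gave 0 without a filter, with the filter at FPKM 5, or with only the 2 groups fitted (1 member at an unadjusted p-value under 0.05 in each). It was 2 with median centring, scaling by summed fragments, or voom, and ranged from 0 to 2 with 1 library left out. For the other pathway genes in Ep1, the count of 5 became 1 without a filter, 3 with the replicate block, and 8 with only the 2 groups fitted, and ranged from 0 to 10 with 1 library left out. Replicate numbers did not pair the libraries: same-numbered libraries correlated in their deviations from the group means at -0.056 to 0.074 over 9 pairs, others at -0.108 to 0.153 over 18. With the replicate block, the members called numbered 2, 2, and 1, and the other pathway genes 3, 22, and 16. For most of these fits, the share of all tested genes called is not given here. A changed count can therefore follow the whole table, and nothing on the pathway is drawn from it. Directions turned for differences that were not called. With 1 library left out, the log2 fold change in Ep2 against Ctrl ranged from -0.16 to 0.00 for Dll1, -0.02 to 0.15 for Jag1, and -0.03 to 0.20 for Jag2, that in Ep1 against Ctrl from -0.06 to 0.00 for Pofut1 and -0.02 to 0.10 for Kat2b, and that in Ep2 against Ep1 from -0.09 to 0.19 for Maml2 and -0.13 to 0.07 for Maml3, which had 0.01 with median centring. Where no reason is given, the cause was not tested. Few fragments limit what can be said of Dll4, Notch3, and Hey1.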
